A study of Mus musculus with 10 samples.

Results

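The comparison described here is the passage of time in acid: mouse tumour cells kept at pH 6.4 for 12 h against the same cells kept at pH 6.4 for 4 h. The cells were of the Lewis lung carcinoma line (LLC), a lung tumour line from C57BL/6 mice, and stably carried either the proton-sensing receptor TDAG8 (gene Gpr65) or a control vector, referred to below as the TDAG8 line and the control line. The arrays were chosen by their labels alone, and 4 of the 10 arrays of the series entered the comparison: pH 6.4 for 12 h and pH 6.4 for 4 h, 1 array of each in each line. In the other 6 arrays, each line was at pH 7.4 for 12 h, at pH 7.4 for 4 h or not yet treated. These arrays place the levels and were normalised together with the acid arrays. Those at pH 7.4 also enter the comparisons with pH 7.4. They also supply part of the spread in an alternative fit, described below, by which single genes are said to pass. All cells, the untreated ones too, had first spent 12 h without serum, in medium with 0.1% bovine serum albumin. Each array held RNA pooled in equal amounts from 4 cultures, so a pooled array is 1 sample with no replicate. The 2 lines were used as matched repeats of the step from 4 h to 12 h. The p-values thus measure only the spread between these arrays, and a difference that the 2 lines do not share counts as spread.

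Extracellular acid is a common feature of tumours, and cells sense it through ion channels and through receptors such as TDAG8, which raises cyclic AMP when protonated. Acid medium is known to change the metabolism and the growth signalling of tumour cells. A response to a new condition often has an early wave, of genes such as Fos that encode short-lived regulators, and later waves that follow it.

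The probe set for Gpr65 gave deposited signals of 0.3 to 5.3 over the 10 arrays, which is too low to check the labels of the lines. Of the 13 epithelial marker genes on the array, 3 reached a signal of 50 on any array, namely Krt8, Krt18 and Tjp1, while Epcam and Cdh1 did not. Of the 13 fibroblast and mesenchymal markers, 10 reached it, and 0 of the 11 leukocyte and 0 of the 8 endothelial markers did. The summed signal of the mesenchymal markers was 15682 and 15832 in the TDAG8 and control lines at 12 h in acid, against 16281 and 15868 at 4 h. The epithelial sum was 2719 and 1433 at 12 h, against 3050 and 1972 at 4 h. The ratio of 3′ to 5′ signal, a measure of RNA integrity, was 1.27 and 1.35 for actin at 12 h in acid, against 1.28 and 1.32 at 4 h.

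More genes differed between 12 h and 4 h in acid than at pH 7.4, in both directions. Signals were normalised and expressed as log2(signal + 2.36), and 12161 genes were tested, so that a difference of 1 is 2-fold on that scale. At 12 h, 222 genes (1.83% of those tested) were at least 2-fold higher in both lines and 195 genes (1.60%) at least 2-fold lower in both. At pH 7.4 the same count for 12 h against 4 h gave 24 genes higher (0.197%) and 13 lower (0.107%). Among the 8674 genes whose normalised signal reached 50 on any of the 4 acid arrays, the difference had an SD over genes of 0.53 at pH 6.4 and 0.21 at pH 7.4. Fewer cells of a kind and less RNA per cell cannot be told apart in these samples.

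With 4 arrays and 1 residual degree of freedom, no gene passed an adjusted p of 0.05 (0% of 12161 genes), and the smallest adjusted p was 0.0977 (limma, Benjamini-Hochberg adjustment). An unadjusted p under 0.05 was found for 3752 genes (30.9%). When the spread was instead shared over the 4 matched pairs of the 8 treated arrays, 1273 genes (10.5%) passed as higher at 12 h and 1001 (8.23%) as lower. This version, called below the shared-spread fit, was an alternative and not the chosen test. It counted 396 of the 417 genes that were 2-fold in both lines. Below, a gene is said to pass only in the shared-spread fit. When the pH 6.4 pair of either line was left out, these passing calls were not kept. All 30 genes named below by rule as highest or lowest passed the shared-spread fit, with adjusted p between 0.026 and 0.033 (limma). The 30 and the 417 were chosen on the same arrays for differences that the lines share, so their passing is no separate support.

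The lines resembled each other in what differed between the times. Over the 8674 genes that reached a signal of 50, the TDAG8 line's difference and the control line's had a Pearson correlation of 0.79, and 80.0% of genes had the same sign in both. Over all 12161 genes these were 0.56 and 73.9%. At pH 7.4 the correlation over the same 8674 genes was 0.43. They were chosen by their signal on the acid arrays, so genes that reached 50 only outside acid were not included. Genes are not independent replicates, and the 2 differences share no array. Taken singly, the TDAG8 line had 613 genes at least 2-fold higher and 503 at least 2-fold lower at 12 h, and the control line had 644 and 620. Only 47 genes were 2-fold in opposite directions in the lines.

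**Figure D1:**
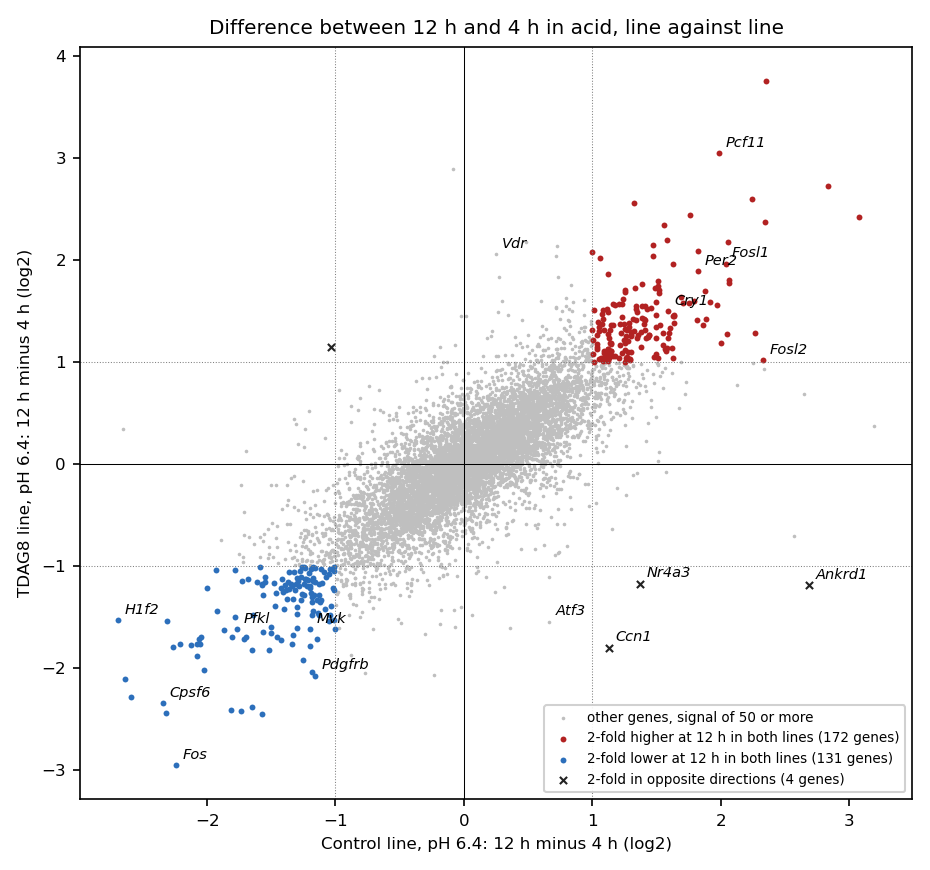
Each point is 1 of the 8674 genes with a normalised signal of 50 or more on an acid array; the axes give 12 h minus 4 h at pH 6.4 on the log2 scale, the TDAG8 line on the vertical axis and the control line on the horizontal. The 172 genes that were 2-fold higher and the 131 that were 2-fold lower in both lines lie in 2 opposite corners, and 4 genes, among them Ccn1, Ankrd1 and Nr4a3, were 2-fold in opposite directions.

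The genes that were higher at 12 h and those that were lower at 12 h differed in where they stood at 4 h. The level in acid was set against the mean of the 6 arrays that were never in acid, with 2-fold as the limit. Of the 172 genes of higher signal that were 2-fold higher at 12 h in both lines, 73 (42.4%) were low at 4 h and within 2-fold of the non-acid level at 12 h. A smaller number, 41 (23.8%), were within 2-fold at 4 h and high at 12 h. Of the 131 genes that were lower at 12 h, 105 (80.2%) were within 2-fold of the non-acid level at 4 h and low at 12 h. Only 5 (3.82%) were high at 4 h and within 2-fold at 12 h. These counts use the arrays that chose the genes and are a description.

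The shares were smaller when genes were chosen in 1 line and their levels read in the other, where no array is shared. Of 292 genes lower at 12 h in the control line, 144 (49.3%) were within 2-fold at 4 h and low at 12 h in the TDAG8 line, and of 262 chosen in the TDAG8 line, 128 (48.9%) were so in the control line. Of 375 genes higher at 12 h in the control line, 25.6% were low at 4 h and within 2-fold at 12 h in the TDAG8 line, and 16.3% were within 2-fold at 4 h and high at 12 h. Of 328 chosen in the TDAG8 line, these shares in the control line were 33.2% and 13.1%. Some other pattern was found for 58.1% and 53.7% of the higher genes chosen in the control and TDAG8 lines. For the lower genes it was 48.3% and 47.3%. The share of all genes with each pattern was not counted.

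A further reading chose genes in 1 line by their difference between pH 6.4 and pH 7.4 at 4 h, and followed them in the other. Of 408 genes at least 2-fold lower at pH 6.4 than at pH 7.4 at 4 h in the control line, 124 (30.4%) were at least 2-fold higher at 12 h than at 4 h in acid in the TDAG8 line, and 83.1% were above 0. Of all genes of that signal, 3.78% were 2-fold higher and 53.4% above 0. Chosen in the TDAG8 line (358 genes) and read in the control line, 30.4% were 2-fold higher at 12 h, against 4.32% of all. The same reading was made for genes at least 2-fold higher at pH 6.4 than at pH 7.4 at 4 h. In the TDAG8 line at 12 h, 11.7% of 180 chosen in the control line were 2-fold lower and 3.33% 2-fold higher (median difference -0.19). Over all genes of that signal these shares were 3.02% and 3.78%. Of 211 chosen in the TDAG8 line, 5.69% were 2-fold lower and 6.16% 2-fold higher in the control line (median 0.06). There the shares of all genes were 3.37% and 4.32%.

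Per2, Fosl1 and Rdh9 are examples of genes near their pH 7.4 level at 4 h in acid and above it at 12 h. Per2, a repressor of the circadian clock, had signals of 69.1 and 87.7 in the TDAG8 and control lines at 12 h in acid, against 16.9 and 23.0 at 4 h (probe set 1417602_at). The 2 lines differed little, the 12 h arrays lay above both 4 h arrays, and the 6 arrays not in acid were between 15.6 and 21.1. The difference was 1.86 ± 0.13 on the log2 scale (mean of the lines with limma's moderated SE, 2 lines), a fold of 3.63. Here and below, the SE is from the fit of the 4 acid arrays and not from the shared-spread fit.

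Fosl1, which encodes the AP-1 subunit Fra-1, had signals of 665 and 594 at 12 h, against 169 and 143 at 4 h, a log2 difference of 2.00 ± 0.13 (1417487_at). At pH 7.4 its signal was 159 and 172 at 12 h, against 190 and 172 at 4 h. Rdh9, a retinol dehydrogenase, had 90.6 and 67.1 at 12 h in acid, against 11.7 and 7.39 at 4 h, a log2 difference of 2.78 ± 0.14 (1427963_s_at). The suffix of that probe set marks probes that can match more than 1 transcript, so related genes may share its signal. Xaf1, an interferon-inducible antagonist of an apoptosis inhibitor, had 47.4 and 99.1 at 12 h, against 11.9 and 21.9 at 4 h. Its second probe set gave -0.54.

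A second group was far below the non-acid level at 4 h and close to it at 12 h, in the probe set of highest mean of each gene. Pcf11, which takes part in cutting pre-mRNA and ending transcription, had signals of 179 and 101 at 12 h in acid (1427159_at). At 4 h its signals were 19.6 and 23.8, while the 6 other arrays lay between 129 and 169. Its log2 difference was 2.52 ± 0.32, and 3 of its 4 probe sets were higher at 12 h in both lines, with 1 at -0.78. Taok1, a stress-responsive protein kinase, had 377 and 285 at 12 h, against 81.3 and 66.6 at 4 h, a difference of 2.12 ± 0.14. None of its 6 probe sets gave a lower mean at 12 h.

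Nfatc1, a transcription factor activated by calcium signalling, had 85.8 and 100.2 at 12 h, against 23.5 and 22.2 at 4 h, with 85.3 to 110 on the other arrays. Klf3, a transcriptional repressor, was higher at 12 h by 1.96 ± 0.15 (1454666_at). In that probe set its signals of 214 and 145 at 12 h and 48.5 and 39.4 at 4 h were all below the 434 or more of the other arrays. Its probe set 1421604_a_at had 155 and 168 at 12 h and 111 and 63.0 at 4 h, against 67.2 to 80.5 outside acid. Samd4, an RNA-binding repressor of translation, Kif13a, a kinesin, and Dennd5b, an activator of Rab proteins, showed the same return from below, with differences of 1.79 ± 0.14, 1.67 ± 0.13 and 2.10 ± 0.23. Cep97, a centrosomal protein that restrains cilium formation, was higher by 2.36 ± 0.13. All 4 probe sets of Samd4, all 5 of Kif13a and all 4 of Cep97 were higher at 12 h in both lines.

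Il15ra, which encodes a subunit of the interleukin-15 receptor, had the largest mean difference of the 15 genes named as higher, 3.06 ± 0.40. Its signals were 92.3 and 98.7 at 12 h, against 4.65 and 17.4 at 4 h, and 30.9 to 39.5 elsewhere, so it was low at 4 h and high at 12 h. Arhgap39, a GTPase-activating protein, had 143 and 136 at 12 h, against 24.8 and 14.1 at 4 h, a difference of 2.75 ± 0.22. One of its 3 probe sets went the other way, at -0.99.

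Among the 15 genes named as lower at 12 h, most were near their non-acid level at 4 h. Cpsf6, a subunit of the cleavage factor that chooses where pre-mRNAs end, had signals of 91.2 and 97.7 at 12 h, against 473 and 505 at 4 h, with 511 to 604 on the other 6 arrays (1428232_at). Its difference was -2.34 ± 0.13, a 5.07-fold lower level at 12 h, and its 6 probe sets ranged between -2.34 and -0.18. Tenm4, a transmembrane teneurin of cell contacts, had 61.6 and 76.9 at 12 h, against 347 and 393 at 4 h, a difference of -2.38 ± 0.14 that was negative in all 3 probe sets. Sned1, a secreted matrix protein, had 39.3 and 28.4 at 12 h, against 177 and 189 at 4 h, and the other arrays held 279 to 456, so it was already below them at 4 h.

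Ehd2, a component of the neck of caveolae, was lower by 1.98 on the log2 scale at 12 h, at 142 and 101, against 531 and 433 at 4 h, and all 4 probe sets were lower. Vegfd, a growth factor for lymphatic vessels, had 82.9 and 67.3 at 12 h, against 275 and 241 at 4 h (-1.75 ± 0.14). Sclt1, a protein of the centriole's distal appendages, had 25.9 and 28.4 at 12 h, against 90.6 and 98.5 at 4 h. Rida, an enzyme that removes reactive intermediates of amino acid breakdown, had 70.1 and 49.5 at 12 h, against 237 and 215 at 4 h. Zfp941, a zinc finger protein, had 19.3 and 4.95 at 12 h, against 71.9 and 29.6 at 4 h.

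Zfp941, Fos and H2aw were the exceptions among the 15, more than 2-fold above the non-acid level at 4 h. Fos, the immediate early subunit of AP-1, had 67.8 and 37.7 at 12 h, against 541 and 187 at 4 h, a difference of -2.60 ± 0.24 (1423100_at). All 4 acid arrays lay above the 6.62 to 11.2 of the arrays not in acid, so at 12 h it was lower than at 4 h and still above the non-acid level. H2aw, a histone of the H2A family, had 102 and 94.6 at 12 h, against 506 and 582 at 4 h, and 86.4 to 145 elsewhere. Its probe set can match near-identical histone copies, so the gene is uncertain.

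**Figure D2:**
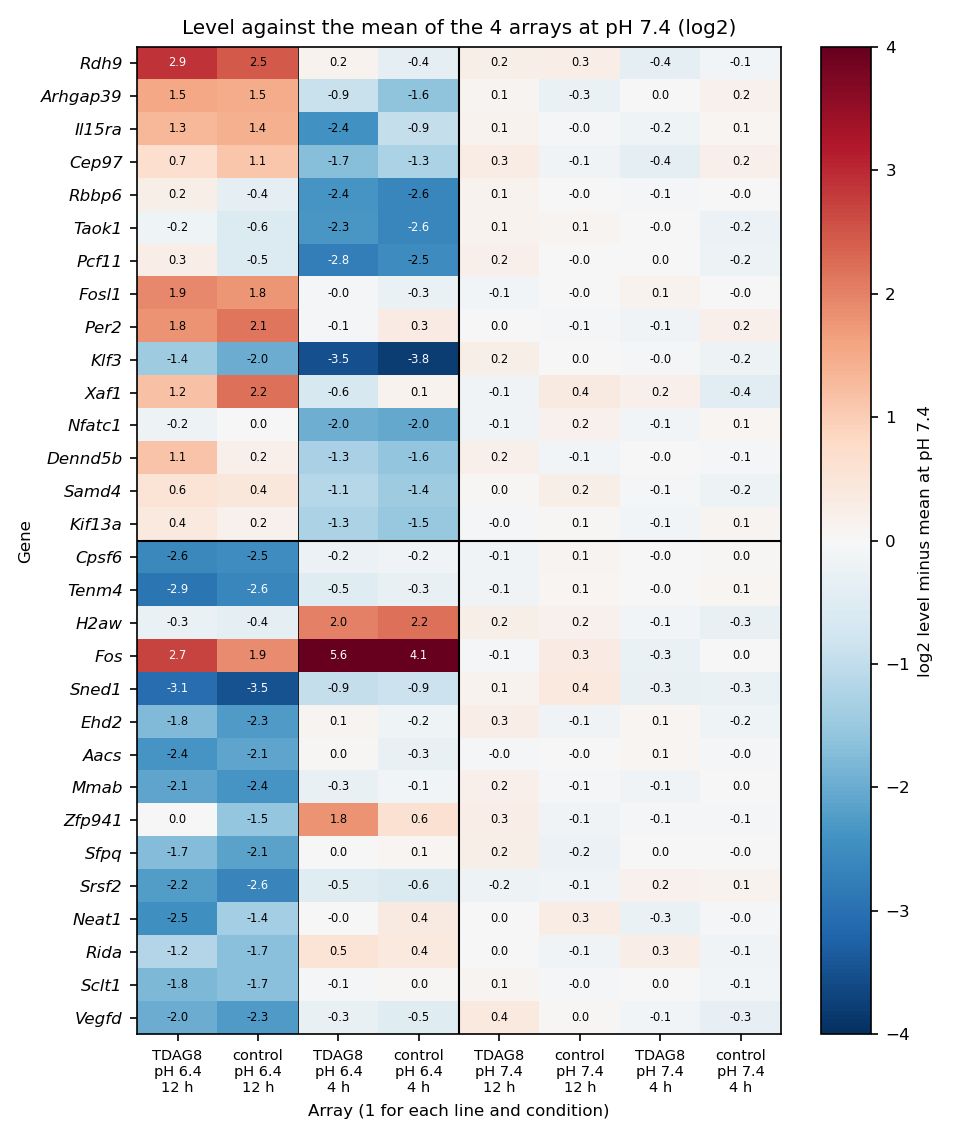
Rows are the 15 genes named as higher at 12 h in acid (upper) and the 15 named as lower (lower), and columns are single arrays; colour and number give the log2 level minus the mean of the 4 arrays at pH 7.4. Colour is capped at 4 in either direction, which Fos exceeds on both 4 h arrays. Genes such as Pcf11, Taok1 and Nfatc1 are low in both 4 h columns and near 0 at 12 h, whereas Cpsf6, Aacs and Ehd2 are near 0 at 4 h and low at 12 h.

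Genes of sterol synthesis were lower at 12 h as a group. The pathway builds cholesterol from acetyl-CoA through mevalonate, and its genes are induced together by the SREBP2 factor when sterols are scarce. Of 23 genes of sterol and fatty acid synthesis tested, 22 were lower in both lines and 0 higher in both, and 12 passed as lower in the shared-spread fit, where 8.23% of all genes did. With arrays centred on the median, 20 were lower in both lines and 1 higher. The median difference was -0.56 in acid, beside 0.03 over all genes tested, and 0.07 for the same genes at pH 7.4. The list was chosen with earlier results of these data known.

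Mvk, mevalonate kinase, had signals of 62.0 and 78.8 at 12 h, against 196 and 183 at 4 h, a difference of -1.41 ± 0.18. The 6 arrays outside acid lay between 235 and 315, so both times in acid were below them. Mvd, which makes isopentenyl diphosphate from the same branch, had 231 and 195 at 12 h, against 483 and 417 at 4 h (-1.07 ± 0.13). Dhcr7, the reductase of the final step to cholesterol, had 324 and 343 at 12 h, against 756 and 697 at 4 h (-1.12 ± 0.14). Nsdhl, which removes methyl groups from sterols, had 397 and 442 at 12 h, against 963 and 877 at 4 h (-1.13 ± 0.15).

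Of the other genes of the same route, Msmo1 (-0.83), Hsd17b7 (-0.80), Lss (-0.76), Sc5d (-0.75), Sqle (-0.63), Hmgcs1 (-0.56) and Cyp51 (-0.53) passed as lower. So did Insig1 (-0.53), whose protein holds SREBP in the endoplasmic reticulum. The fatty acid genes had smaller differences that did not pass, with Fasn at -0.46, Acly at -0.42 and Scd1 at -0.17. Idi1, Fdps and Fdft1, which belong to the sterol route, did not pass either. The genes of the regulators themselves, Srebf2 and Srebf1, had differences of -0.11 and -0.09.

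**Figure D3:**
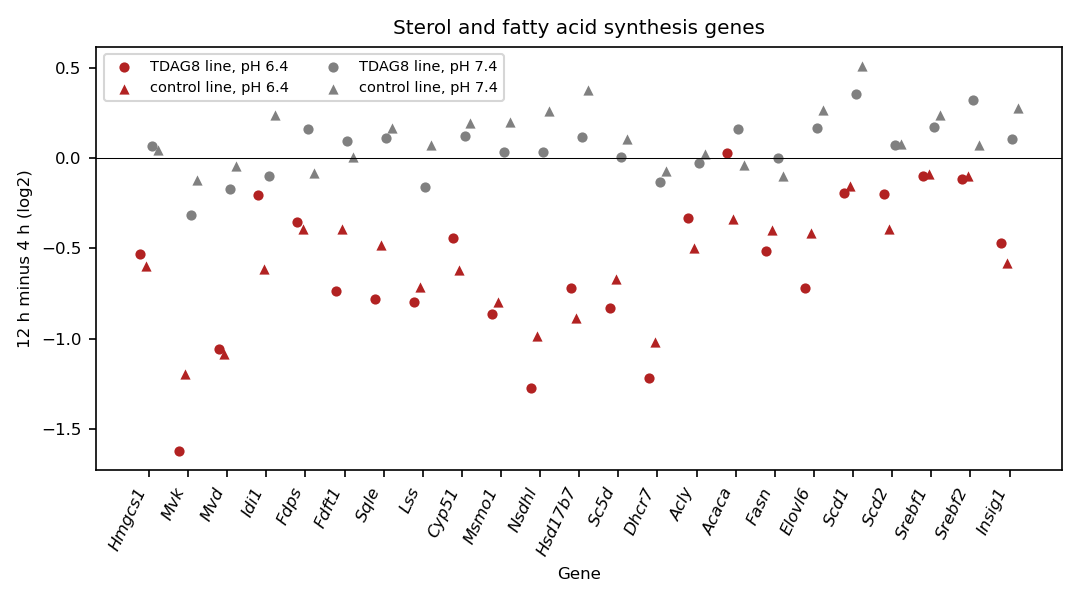
For each of the 23 genes of sterol and fatty acid synthesis, points give 12 h minus 4 h on the log2 scale in TDAG8 cells (circles) and control cells (triangles), in red at pH 6.4 and in grey at pH 7.4. Each point is a difference of 2 arrays. The red points lie below 0 for 22 of the 23 genes, and Mvk is lowest.

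Aacs and Mmab, both among the 15 genes named as lower, have ties to this pathway. Aacs, which turns acetoacetate into a precursor for sterols and fatty acids, had 111 and 135 at 12 h, against 603 and 479 at 4 h (-2.11 ± 0.21). Mmab, an enzyme that activates vitamin B12, had 29.8 and 24.6 at 12 h, against 110 and 127 at 4 h (-2.03 ± 0.18), and all 4 of its probe sets were lower. Mmab and Mvk lie head to head on chromosome 5 (GRCm38.p6), with their annotated starts 242 bases apart, so that 1 stretch of DNA lies upstream of both. The stretch is shown because both genes were among the lowest. These are the 250 bases before the Mvk start, chr5:114444019-114444268 on the plus strand (RefSeq), with CCAAT on either strand in capitals.
Mvk: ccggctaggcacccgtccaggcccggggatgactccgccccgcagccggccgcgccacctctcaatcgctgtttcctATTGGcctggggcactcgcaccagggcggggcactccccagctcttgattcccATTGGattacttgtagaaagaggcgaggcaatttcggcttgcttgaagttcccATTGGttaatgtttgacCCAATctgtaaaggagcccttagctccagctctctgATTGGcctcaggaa
The motif CCAAT is the box bound by the factor NF-Y. It was searched on both strands and found 5 times in these bases. It was present in the 250 bases upstream of 15 of the 18 sterol and fatty acid genes that had an entry, and in at least 1 such stretch of 37.5% of all 27025 genes with an entry. A match of letters is a description and not a site.

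Regulators of messenger RNA ends and splicing differed in both directions. Of 19 genes of pre-mRNA processing tested, 3 passed as higher and 4 as lower, where 10.5% and 8.23% of all genes did, with a median of -0.11. Pcf11 and Cpsf6, above, were the extremes. Wdr33, which binds the polyadenylation signal, had 101 and 102 at 12 h, against 41.0 and 50.9 at 4 h (1.11 ± 0.15), but only 2 of its 7 probe sets were higher in both lines and 4 went the other way. Fip1l1, another subunit of that complex, passed as higher, at 0.52. The SR splicing factors that passed as lower were Srsf2 at -1.92 ± 0.16, Srsf1 at -0.94 ± 0.13 and Srsf3 at -0.72 ± 0.18. Srsf2 had 542 and 407 at 12 h, against 1851 and 1723 at 4 h, and 2248 to 3036 outside acid.

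Sfpq and Neat1, a protein and the long noncoding RNA that build nuclear paraspeckles, were both among the 15 genes named as lower. Sfpq had 360 and 276 at 12 h, against 1233 and 1289 at 4 h (-1.99 ± 0.18). Neat1 had 122 and 261 at 12 h, against 665 and 873 at 4 h (-2.08 ± 0.23). Other probe sets of both genes differed: the 6 of Sfpq ranged between -2.28 and 0.56, and the second of Neat1 gave 0.00.

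Probe sets of 1 gene sometimes differed in opposite ways. Of 5959 genes with several probe sets above the level filter, 500 had at least 1 that was 2-fold in both lines. In 5 genes, singled out after their values were seen, probe sets were 2-fold in both lines in opposite directions: Mbp, Rab11fip3, Rbbp6, Zfp451 and Zfp800. Rbbp6, a ubiquitin ligase that also takes part in cutting mRNA ends, is named as higher through probe set 1426487_a_at, at 241 and 159 at 12 h, against 37.9 and 31.8 at 4 h (2.42 ± 0.16). Probe set 1425115_at of the same gene had 14.8 and 28.9 at 12 h, against 94.4 and 127.5 at 4 h, a difference of -2.27. Its remaining probe set was at -0.83, and the mean of all 3 was -0.16, so no single direction can be given for Rbbp6. An opposite mean was also found for 1 of the 6 probe sets of Klf3 (-0.49), 1 of the 5 of Dido1 (-0.25), 2 of the 5 of Nfatc1 (the lower at -0.13), 2 of the 5 of Spred2 (the lower at -0.30), 1 of the 4 of Srsf2 (0.12), 1 of the 3 of Ddx58 (-0.17) and 1 of the 6 of Per3 (-0.88).

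Members of the AP-1 family differed in direction. Of 18 immediate early genes tested, 2 passed as higher and 4 as lower, beside 10.5% and 8.23% of all genes, with a median of -0.25. Beside Fos, Junb passed as lower, at 213 and 184 at 12 h, against 378 and 340 at 4 h (-0.85 ± 0.13), and so did the transcription factors Egr3 (-0.97) and Klf2 (-0.94). The second probe set of Egr3 was higher at 12 h in both lines (mean 0.80). Fosl1 passed as higher, and Fosl2, the gene of the related subunit Fra-2, had 2150.2 and 431 at 12 h, against 1062 and 83.7 at 4 h (1.67 ± 0.38). The TDAG8 line was above the control line at both times for Fosl2, and its second probe set gave -0.54.

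Among genes of growth factor signalling, Dusp4, a phosphatase that restrains ERK, passed as higher at 308 and 435 at 12 h, against 121 and 181 at 4 h (1.29 ± 0.13). Spred2, another inhibitor of the pathway, also passed (0.76 ± 0.13), while Dusp5 passed as lower (-0.99 ± 0.23). Hbegf, a ligand of the EGF receptor, had 386 and 297 at 12 h, against 135 and 165 at 4 h (1.17 ± 0.22), and the arrays outside acid lay between 22 and 42.9. Lats2, a kinase that restrains the YAP coactivator, had 371 and 182 at 12 h, against 150 and 35.9 at 4 h (1.78 ± 0.30), and all 6 of its probe sets were higher at 12 h. Pdgfrb, a receptor of mesenchymal cells, passed as lower at 93.0 and 228 at 12 h, against 400.2 and 511 at 4 h (-1.62 ± 0.28).

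Of 18 cytokines and NF-κB targets tested, 2 passed in each direction, near the 10.5% and 8.23% of all genes that passed as higher and as lower. The chemokine Cxcl2 had 315 and 187 at 12 h, against 647 and 387 at 4 h (-1.04 ± 0.13), and Cxcl5 was lower by the same amount at lower signals, 13.4 and 5.15 at 12 h, against 35 and 11 at 4 h. The macrophage growth factor Csf1 (0.72 ± 0.13) and the monocyte chemokine Ccl2 (0.55 ± 0.14) passed as higher. All 4 acid arrays lay above all 6 others for Csf1, Ccl2 and Cxcl2.

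Several interferon-induced genes were higher at 12 h, most at low signals. Of 15 tested, 5 passed as higher (Ifit1, Gbp2, Ddx58, Rsad2 and Irf9) and 0 as lower, where 10.5% of all genes passed as higher. Counted by sign, 8 were higher and 4 lower in both lines. The list's median was 0.87, but TDAG8 cells alone gave 0.15 and control cells 0.85. Ifit1, an RNA-binding antiviral protein, had 16.7 and 43.6 at 12 h, against 5.21 and 9.35 at 4 h (1.65 ± 0.22), with 8.48 to 24.0 outside acid. Gbp2, a guanylate-binding protein, had 12.8 and 44.7 at 12 h, against 4.00 and 13.2 at 4 h (1.42 ± 0.16). Ddx58, which encodes the RNA sensor RIG-I, had the highest signals of the 5, at 180 and 220 at 12 h, against 97.6 and 118 at 4 h (0.87 ± 0.13).
The upstream bases of Ifit1, the gene of the list with the largest difference among those that passed, are given as an example, chr19:34640639-34640888 on the plus strand (RefSeq, GRCm38.p6). Capitals mark 2 copies of GAAA with 2 bases between them, on either strand, the core of the element bound by interferon regulatory factors.
Ifit1: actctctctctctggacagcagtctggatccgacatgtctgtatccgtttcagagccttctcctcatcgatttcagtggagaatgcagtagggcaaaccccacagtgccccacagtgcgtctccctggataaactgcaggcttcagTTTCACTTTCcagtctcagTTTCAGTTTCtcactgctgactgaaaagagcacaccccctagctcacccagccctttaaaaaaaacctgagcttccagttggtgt
The pair was found 2 times here, in 7 of the 13 interferon genes with an entry, and in 3.46% of all genes.

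Of 16 genes of the circadian clock tested, Per2, Cry1 and Clock passed as higher and Bhlhe40 as lower (-0.52 ± 0.14), where 10.5% and 8.23% of all genes passed. By sign, 8 were higher and 4 lower in both lines, with a list median of 0.18. Cry1, a repressor that pairs with the Per proteins, had 431 and 260 at 12 h, against 151 and 84.9 at 4 h (1.54 ± 0.13), with 75.8 to 113 outside acid. Clock, which encodes a subunit of the activator they repress, had 183 and 154 at 12 h, against 69.7 and 67.6 at 4 h (1.26 ± 0.14), but 1 of its 4 probe sets gave -0.97. Arntl, the gene of the partner of Clock, did not pass, at 0.12, and nor did Per1, at -0.39. Nr1d1 (0.89) and Per3 (0.84) were higher in both lines without passing. At pH 7.4, Per2 had 18.2 and 16.8 at 12 h, against 16.3 and 21.1 at 4 h.

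Among 18 modifiers of histones and chromatin tested, 6 passed as higher and 0 as lower, with a median of 0.29; of all genes, 10.5% and 8.23% passed. Tet2, which oxidises methylated DNA, had 76.3 and 87.2 at 12 h, against 32.2 and 19.96 at 4 h (1.60 ± 0.26), but its other probe set was lower at 12 h in both lines, at 46.2 and 56.0, against 68.1 and 74.0 at 4 h (mean -0.46). Its relative Tet1 had 22.8 and 9.71 at 12 h, against 6.97 and 3.36 at 4 h (1.25 ± 0.16). Dido1 had 139 and 94.7 at 12 h, against 32.1 and 32.6 at 4 h (1456405_at, 1.76 ± 0.20). With 342 to 388 outside acid, that probe set was low at both times. Probe set 1437647_at of Dido1 was not, with 35.9 and 54.0 at 12 h, 46.7 and 59.8 at 4 h, and 26.3 to 42.2 outside acid. Suz12, a Polycomb subunit, Kat2b, an acetyltransferase, and Brd2, a reader of acetylated histones, passed at 0.83, 0.86 and 0.66. Of 7 histone genes tested, H1f2 and H2ax passed as lower. H1f2, a linker histone, had 360 and 156 at 12 h, against 1046 and 1022 at 4 h (-2.11 ± 0.34), and H2ax, the variant marked at DNA breaks, was lower by 0.86 on the log2 scale.

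In central metabolism, 2 of 23 glycolysis and HIF target genes passed as higher and 4 as lower, and 17 were lower in both lines (14 with arrays centred on the median). Over all genes, 10.5% passed as higher and 8.23% as lower. Pfkl, the liver-type phosphofructokinase, had 323 and 254 at 12 h, against 997 and 869 at 4 h (-1.69 ± 0.14), although 1 of its 3 probe sets gave 0.37. Pdk1, which restrains pyruvate oxidation, had 349 and 243 at 12 h, against 672 and 571 at 4 h (-1.08 ± 0.15), and Ldha and Egln1 passed at -0.58 and -0.76. The glucose transporter gene Slc2a3 passed as higher, at 505 and 423 at 12 h, against 288 and 183 at 4 h (1.0 ± 0.17). Of 21 oxidative phosphorylation genes, 0 passed in either direction, with a median of -0.02.

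In the amino acid response, 1 of 20 genes passed as higher and 3 as lower, against 10.5% and 8.23% of all genes. Slc38a2, a neutral amino acid transporter, had 1061 and 919 at 12 h, against 394 and 247 at 4 h (1.66 ± 0.18), all below the 2324 to 2767 of the arrays outside acid, and its other 2 probe sets went the other way. Atf5, a stress transcription factor, had 56.4 and 77.8 at 12 h, against 152 and 220.2 at 4 h (-1.43 ± 0.13). Shmt2 (-0.84) and Psph (-0.71), enzymes of serine and glycine metabolism, passed as lower.

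Of 25 genes of Myc and ribosome biogenesis, 5 passed as higher and 1 as lower, with 10.5% and 8.23% over all genes. Polr1b, a subunit of RNA polymerase I, had 149 and 137 at 12 h, against 71.2 and 69.4 at 4 h (1.0 ± 0.13), and Ppan, Nop2, Gnl3 and Rrs1, factors of the nucleolus, passed at 0.88, 0.93, 0.75 and 0.51. Of 12 NRF2 targets, Txnrd1 (0.95 ± 0.16) and Gclc (0.63 ± 0.13), enzymes of thiol reduction and glutathione synthesis, passed as higher. The proapoptotic gene Bbc3 (-1.09 ± 0.17) and the caspase gene Casp9 (-1.07 ± 0.15) passed as lower, and Bid (0.81 ± 0.15) and Casp8 (0.53 ± 0.14) as higher. The bicarbonate exchanger Slc4a2 passed as lower (-0.89 ± 0.14), and the tight junction genes Tjp1 (-1.24 ± 0.14) and Ocln (-1.13 ± 0.13) did too. Of 11 ribosomal protein genes, 12 heat shock genes and 9 abundant reference genes, 0 passed in either direction.

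**Figure D4:**
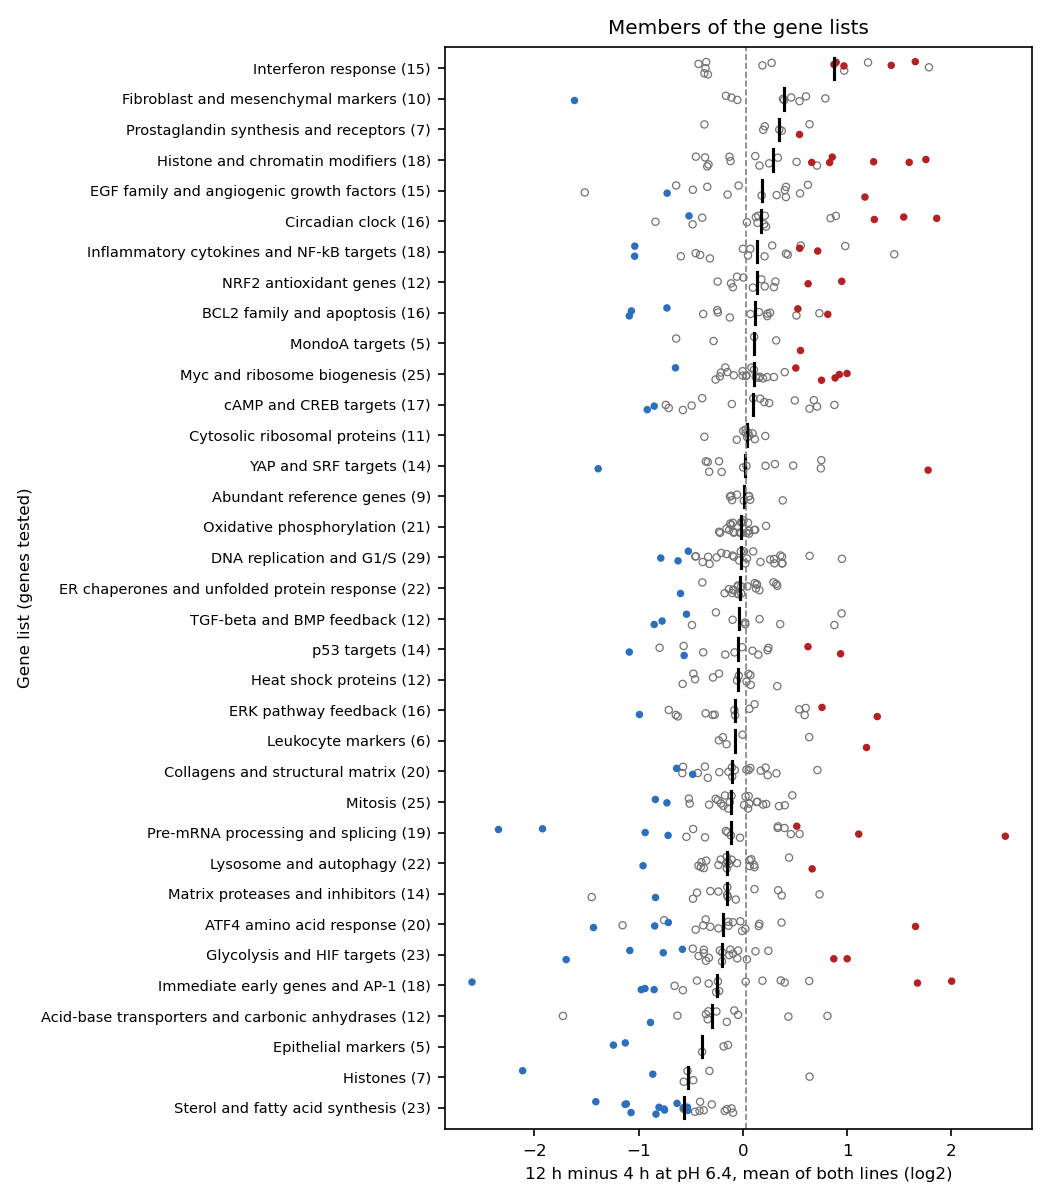
Points are single genes of the 35 lists with at least 5 genes tested, placed by 12 h minus 4 h at pH 6.4 on the log2 scale (mean of both lines); filled red and blue points passed as higher and lower in the shared-spread fit, and open points did not. Black bars are list medians and the dashed line is the median of all genes tested, 0.03; sterol and fatty acid synthesis has the lowest median, -0.56, and the interferon list the highest, 0.87.

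The step from 4 h to 12 h in acid was also set against the same step at pH 7.4, in a fit of the 8 treated arrays. No gene passed an adjusted p of 0.05 (0% of 12161), the smallest adjusted p was 0.0726, and 3544 genes (29.1%) had an unadjusted p under 0.05 (limma). The 8 genes with the largest positive difference between the steps were Il15ra (2.96), Arhgap39 (2.93), Pcf11, Rbbp6, Rdh9, Cep97, Gpr149 (2.19) and Fosl1 (2.13). Gpr149, an orphan receptor gene, was lower at 12 h at pH 7.4 in both lines, with 17.9 and 16.7 at 12 h, against 31.4 and 43.2 at 4 h. The 8 most negative were Sned1 (-2.92), Fos (-2.85), H2aw (-2.83), H1f2 (-2.46), Enho, Neat1, Mlph and Tenm4 (-2.33). Mlph, an adaptor of melanosome transport, had 4.64 and 3.22 at 12 h in acid, against 36.1 and 16.1 at 4 h, and Enho, which encodes a secreted peptide, had 9.76 and 1.58, against 26.8 and 24.1.

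The lines went apart for a small number of genes, and with 1 array of each kind these differences have no test. Ccn1, a secreted matrix protein induced by YAP and SRF, had 328 at 12 h against 1149.9 at 4 h in the TDAG8 line and 669 at 12 h against 304 at 4 h in the control line. Ankrd1, a nuclear target of YAP, had 26.9 at 12 h against 64.3 at 4 h in the TDAG8 line and 74.4 against 9.53 in the control line. Both genes were thus higher in the TDAG8 line at 4 h and higher in the control line at 12 h. Arrays outside acid lay between 33.6 and 41.9 for Ccn1 and between 2.48 and 12.3 for Ankrd1.

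Other genes on which the lines went apart included several that encode regulators of transcription. Nr4a3, an orphan nuclear receptor induced by cyclic AMP, had 99.0 at 12 h against 226 at 4 h in the TDAG8 line and 11.4 against 2.96 in the control line. Atf3, a stress-induced factor, had 45.9 at 12 h against 139 at 4 h in the TDAG8 line and 129 against 80.6 in the control line. Etv4, an ETS factor downstream of ERK, had 25.2 at 12 h against 81.6 at 4 h in the TDAG8 line and 129 against 99.6 in the control line. Rtp4, an interferon-induced gene, had 15.2 at 12 h against 11.2 at 4 h in the TDAG8 line and 86.1 against 7.29 in the control line. Vdr, the vitamin D receptor gene, went the other way, with 127 at 12 h against 28.6 at 4 h in the TDAG8 line and 10.7 against 8.59 in the control line. This rests on probe set 1418175_at alone, since the other, 1418176_at, was higher at 12 h in both lines, with log2 differences of 3.35 for TDAG8 cells and 2.85 for control cells. Etv4 likewise had a second probe set, of lower signal, that was higher at 12 h in both lines (mean 0.81). The other probe sets of Ccn1 and Ankrd1 had the same opposed signs as those given.

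**Figure D5:**
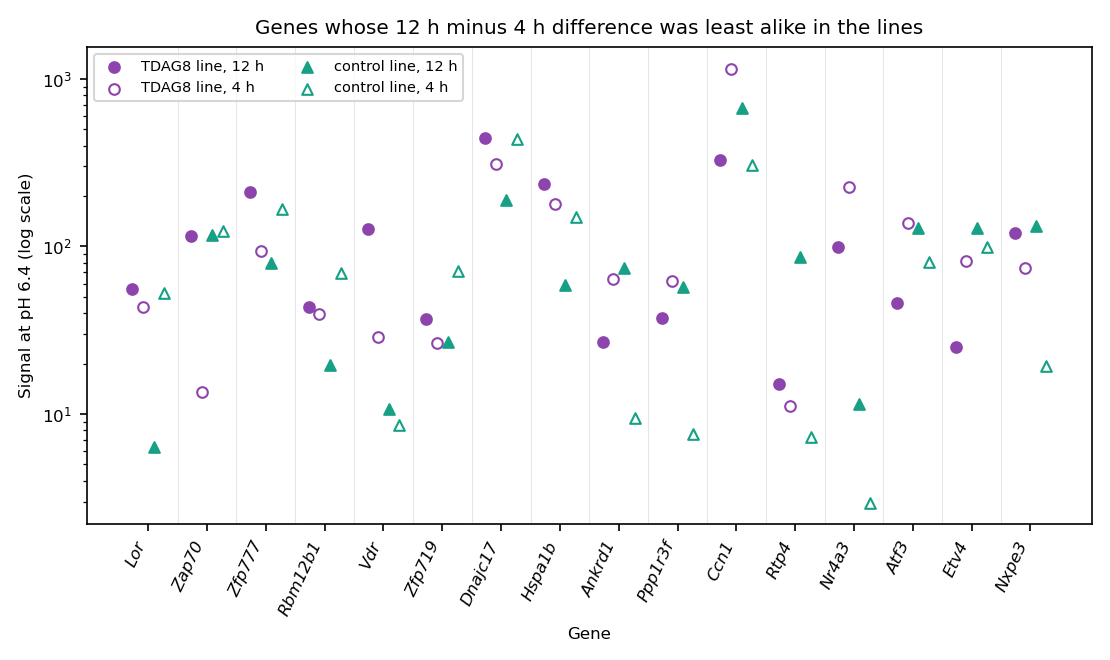
Normalised signal at pH 6.4 on a log axis for the 16 genes whose 12 h minus 4 h difference was least alike in the 2 lines; filled symbols are 12 h and open symbols 4 h, circles the TDAG8 line and triangles the control line, each a single array. Ccn1, Ankrd1, Nr4a3 and Atf3 have the filled circle below the open circle and the filled triangle above the open triangle.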

How the data were processed

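The authors deposited 1 value per probe set and array of a mouse genome expression array: a linear intensity (signal), per the deposited table. The deposited signal had a 2% trimmed mean of 100 on each array, the mark of scaling to 1 target, and the software behind it is not given in the sources used here. Per the labels' protocols, each array took 2 µg of total RNA. The members, gene lists and tests were chosen with earlier results of these data known.

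Of 45101 probe sets, 34945 had 1 gene symbol and represented 18193 genes; 932 with several symbols, 9160 with none and 64 control probe sets were left out. The 10 arrays were quantile normalised and values taken as log2(signal + 2.36), where the constant is the 20th percentile. Genes were read from their probe set of highest mean, and the 12161 whose mean reached the 40th percentile over probe sets were tested. Differences between 12 h and 4 h understate the change of low genes on this scale. With limma 3.58.1 in R 4.3.3 (lmFit, eBayes, Benjamini-Hochberg), the 4 acid arrays were fitted with the line as a block, which leaves 1 residual degree of freedom. The alternative with the 8 treated arrays and line-by-pH blocks leaves 2. The comparison with pH 7.4 used the same 8 arrays. No batch labels were used. The fits were tested on simulated data.

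Genes were named by rule: the 15 highest and 15 lowest at 12 h, by the smaller of the 2 line differences with the same sign and a signal of 50 or more on an acid array, predicted genes skipped; up to 5 members of each of 36 gene lists, ranked alike; the 8 in each direction least alike in the lines; and the 8 in each direction with the largest difference between acid and pH 7.4. Other members are given as values, and the 5 genes with opposed probe sets were chosen after their values were seen. Alternatives were median centring, the deposited values, other pseudocounts, filters and blocks, the mean of all probe sets, eBayes with trend and robust, and each pair left out. Promoter sequences are from RefSeq (GRCm38.p6).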

Additional observations from a re-analysis of the deposited data

Results flagged for a closer look

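In 13 genes the 12 h minus 4 h difference in acid had opposite signs in the 2 lines and was least alike in size. These differences, TDAG8 line minus control line on the log2 scale, were not tested, since each is a difference of single arrays. They were positive for Lor (3.0), Zap70 (2.98), Zfp777 (2.19), Rbm12b1 (1.82), Zfp719 (1.76), Dnajc17 (1.72) and Hspa1b (1.69). They were negative for Ankrd1 (-3.88), Ppp1r3f (-3.28), Ccn1 (-2.93), Nr4a3 (-2.55), Atf3 (-2.21) and Etv4 (-1.97). Hspa1b, an inducible heat shock gene, had a signal of 236 at 12 h against 180 at 4 h in the TDAG8 line and 58.9 against 149 in the control line. Zap70, a kinase of T-cell receptor signalling, had 13.5 at 4 h in the TDAG8 line, against 115 to 124 on the other acid arrays, so 1 array sets its difference. The other probe set of Dnajc17 was higher at 12 h in both lines, and so was that of Zfp719. Lor, which encodes the skin protein loricrin, had 6.35 at 12 h in the control line, against 43.3 to 55.4 on the other acid arrays.

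A control probe set that matches B1 repeats, short repeated elements found in many mouse transcripts, belongs to no gene and entered no test. Its deposited signal was 2602 and 3587 in the TDAG8 and control lines at 12 h in acid, against 1237 and 1456 at 4 h, and lay between 844 and 1249 at pH 7.4. The lower 12 h value was more than 2 times that of every array at pH 7.4.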

How the results depend on the processing

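The count of genes passing at 0 depended on how the spread and low signals were treated. For 12 h against 4 h in acid it was 585 with a pseudocount at the 40th percentile, 3434 with a pseudocount of 32, 2850 when filtered at the 60th percentile, 2978 with a signal of 50 or more, 3584 with trend and robust, and 2274 with the spread over 8 arrays. For acid against pH 7.4 it was 276 with median centring and, under the first 5 of those settings, 514, 2317, 2167, 2232 and 2647, and 715 with only the line as block. It stayed at 0 with the deposited values, no filter, a pseudocount at the 5th percentile and the mean of probe sets. In acid only, it also stayed at 0 without the line block and with median centring. In these settings 2924 to 4067 genes had an unadjusted p under 0.05 (limma). With 1 pair left out, 1 array of each time remained at that pH, and the spread came from other pairs. The passing calls of the shared-spread fit were not kept there. Arrays were paired by line.

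Genes 2-fold in both lines numbered 136 with a pseudocount of 32, 255 with the mean of probe sets, 1834 at a limit of 0.58, and 1116 and 1264 in either line alone. In the TDAG8 line alone, the count of 1116 became 696 and 263 (pseudocounts at the 40th percentile and of 32), 2447 with no filter, 638 (60th percentile) and 590 (signal of 50). In the control line alone, 1264 became 830, 296, 2824, 702 and 667 under the same settings, and 836 with the mean of probe sets. Median centring moved the median of all genes to 0.14, from 0.03 with quantile normalisation, and the 2-fold genes to 392 higher and 140 lower, from 222 and 195; 73.7% were then higher, against 53.2%. The cause of these shifts was not tested.

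Of 2994 alternative values for single genes, 10 changed sign. Averaging probe sets did so for Rbbp6 (-0.16, and -0.30 against pH 7.4), Atf6 (0.059), Gclm (-0.018), Sdha (0.12), Ttk (-0.083), Rps3 (-0.13), Rps4x (-0.045) and Tbp (-0.093). With median centring it was Rpl10a (0.067). The number of arrays, with 1 of each kind, limits every value.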

Other observations

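Some other genes with a known role in tumours differed between the times in acid. Of 14 p53 targets tested, Zmat3 (0.94 ± 0.14) and Phlda3 (0.62 ± 0.14) passed as higher in the shared-spread fit. Bbc3 and Trp53inp1 (-0.56 ± 0.13) passed as lower, where 10.5% and 8.23% of all genes passed as higher and lower. The values are log2 differences with the SE of the fit of the 4 acid arrays (limma, 2 lines), not of the shared-spread fit. Of 22 lysosome and autophagy genes, 1 passed as lower and 1 as higher, where 8.23% and 10.5% of all genes did. The lower was Neu1, a sialidase, at 46.0 and 30.7 in the TDAG8 and control lines at 12 h, against 93.0 and 60.9 at 4 h (-0.96 ± 0.13). Ulk1, the kinase that starts autophagy, passed as higher at 90.5 and 80.1 at 12 h, against 60 and 46.5 at 4 h (0.66 ± 0.14).

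Of 25 mitosis genes, Ccnb2, a mitotic cyclin, and Birc5, which encodes survivin, passed as lower (-0.84 ± 0.18 and -0.73 ± 0.13), a share near the 8.23% of all genes, and 0 passed as higher. Of 29 genes of DNA replication and entry into S phase, 3 passed as lower, also near that share, and 0 as higher. In the TGF-β and BMP list, Id3 (-0.85 ± 0.13), Tgfbi (-0.77 ± 0.14) and Id2 (-0.54 ± 0.15) passed as lower. Id3 had 328 and 91.3 at 12 h, against 581 and 170 at 4 h. Mmp3, a matrix protease, had 111 and 14.0 at 12 h, against 191 and 28.3 at 4 h (-0.84 ± 0.14). It was higher in the TDAG8 line outside acid too, with 185 and 17.4 before treatment. Thbs2 (-0.64 ± 0.14) and Dcn (-0.48 ± 0.14), both of the extracellular matrix, passed as lower.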
